A study of Mus musculus with 12 samples.

Results

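The genes described here build and supply the primary cilium: subunits of the intraflagellar transport (IFT) trains, of the BBSome and its chaperonins, kinesin-2 motors, and proteins of the transition zone at the cilium's base. Many of them are mutated in human ciliopathies. The list held 34 genes, and each was measured by the brightest of its probe sets. A probe set was annotated for 32 of the 34, and 30 passed the filter on dim signals, out of 12379 genes tested on the whole array. Arl6 and Rpgrip1l had no probe set of their own symbol, so their RNA was not measured, and they enter only the promoter comparison. Tmem67 and Kif17 were too dim for the filter and are described separately. Of the 30 tested, 29 were at or above their array's median signal on all 12 arrays, so for these the filter did not depend on the group. Nphp4 reached the median on 5 control arrays and 2 Crx-/- arrays, so it passed only through the control glands.

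The data came from pineal glands of mice of the 129sv strain, profiled on 12 Affymetrix mouse 430_2 arrays. The groups were Crx-/- glands and control glands at Zeitgeber time 6 (ZT6, in the light phase), and Crx-/- glands and control glands at ZT20 (in the dark phase), with 3 arrays in each. All mice were older than 2 months, of both genders, and kept in 12 h light and 12 h dark, and those taken at ZT20 were killed under dim red light. Crx-/- mice lack a functional copy of the homeodomain transcription factor Crx. The labels call the arrays biological replicates of a group and say no more about them, so p-values measure the spread between these samples.

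A primary cilium is made by trains that carry tubulin and membrane proteins along a microtubule core: kinesin-2 moves IFT-B and IFT-A outward, and dynein-2 moves them back. The BBSome, a coat complex that rides on these trains, takes membrane proteins out of the cilium, and the transition zone acts as the gate at its base. In photoreceptors the outer segment is itself a modified cilium, and pinealocytes, which are related to photoreceptors, carry a cilium and express many photoreceptor genes. Crx switches on photoreceptor genes in the retina and acts in the pineal gland too.

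Genes that mark pinealocytes were measured in every group. Otx2, a homeodomain factor of the gland, had normalized signals of 5749 to 6647 in Crx-/- glands and 5868 to 6008 in control glands at ZT6. Otx2 also marks choroid plexus, so its level does not measure pinealocytes alone. The summed signal of 7 other choroid plexus markers was 26400 to 32700 in Crx-/- glands and 21200 to 25500 in control glands at ZT6. Tph1, tryptophan hydroxylase, had normalized signals of 8266 to 8970 in Crx-/- glands and 11419 to 11731 in control glands at ZT6. Aanat, the enzyme of the nightly melatonin rise, had 568.7 to 731.6 in Crx-/- glands at ZT20, against 34.3 to 85 at ZT6, and 732.9 to 2593 in control glands at ZT20, against 159.2 to 232.3 at ZT6. Crx itself gave signal in both genotypes, 6023 to 7479 in Crx-/- glands and 6470 to 6896 in control glands at ZT6 (log2 change 0.00 ± 0.08, SE). Where this probe set lies relative to the deleted part is not known here, so it checks no label. On Crx-/- ZT6 replicate 3 the neuron markers Camk2a and Rbfox3 stood out, at 2577 and 715.7. The other Crx-/- ZT6 arrays had 188.1 and 154.4 for Camk2a, and 105.2 and 102.6 for Rbfox3. The neuron markers Nefl (396.3, against 225.6 and 236.2) and Stmn2 (135, against 46.9 and 39.1) were also highest there. Nefm (150.9, against 160.8 and 133.3) and Snap25 (13083, against 13631 and 12662) did not stand out. Of the astrocyte markers, Slc1a3 was high on that array (2229, against 991.6 and 838.4) and Aldh1l1 was not (255.9, against 244.5 and 296.8). The array that carries the label control ZT20 replicate 3 did not resemble its group. Across genes it correlated at 0.970 to 0.989 with the Crx-/- ZT20 arrays and at 0.914 to 0.924 with the other control ZT20 arrays, which correlated at 0.988 with each other. It was kept under its label, and results at ZT20 are given with all 12 arrays and without it (11 arrays). Of the 30 ciliary genes, 18 had a value on that array nearer to the Crx-/- ZT20 mean than to the mean of the other control ZT20 arrays (60.0%), as had 66.0% of all genes.

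Promoter sequence was compared first, because Crx acts by binding DNA. Crx and its relatives bind sites with the core TAATCC, and RFX factors, which drive many ciliary genes, bind an element named the X-box. RefSeq windows of 300 bases, from 250 before to 50 after each annotated start (assembly GRCm38.p6), were found for 30 of the 34 genes, 35 windows in all. TAATCC, searched on both strands, occurred in 2 of the 35 windows (5.71%), against 7.06% of all 32851 windows. The photoreceptor genes held it in 13 of 44 windows (29.5%). The X-box, also searched on both strands, occurred in 4 of 35 ciliary windows (11.4%), in 0 of 44 photoreceptor windows and in 1.53% of all windows. Its usual first part, GTTGCC, which overlaps many of the X-box matches, occurred in 12 of 35 ciliary windows (34.3%), in 0 of 44 photoreceptor windows and in 12.5% of all windows. A match is a run of letters in these windows and not a measured binding site, and the absence of one says nothing about binding elsewhere.

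The members that hold TAATCC are Bbs1, at position -197 from the start (1 is the first transcribed base), and Rpgrip1, at position -28 on the opposite strand. Both are shown as the 250 bases before the start, 5′ to 3′ on the gene's strand, with the match in capitals, because these are the only members with the Crx core in the window. Bbs1 lies at chr19:4906628-4906877 (minus strand) and Rpgrip1 at chr14:52110653-52110902 (plus strand).
Bbs1: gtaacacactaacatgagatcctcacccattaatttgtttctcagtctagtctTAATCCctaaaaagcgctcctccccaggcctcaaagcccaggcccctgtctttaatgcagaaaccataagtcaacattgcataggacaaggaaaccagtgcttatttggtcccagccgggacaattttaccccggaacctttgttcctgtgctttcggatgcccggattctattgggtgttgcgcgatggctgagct
Rpgrip1: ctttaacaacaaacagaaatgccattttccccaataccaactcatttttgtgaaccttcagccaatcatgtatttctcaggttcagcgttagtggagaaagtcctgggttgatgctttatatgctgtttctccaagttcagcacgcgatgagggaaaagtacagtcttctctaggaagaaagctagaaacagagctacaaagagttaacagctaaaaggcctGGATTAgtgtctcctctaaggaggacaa

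The members with an X-box are Ift57, which has it at positions -87 and -60, Kif17 at -73, Bbs1 at 2 and Ahi1 at 22. The same 250 bases are shown for Ift57 (chr16:49699044-49699293, plus strand) and Kif17 (chr4:138262001-138262250, plus strand), with the X-box in capitals. For Bbs1 (chr19:4906605-4906634, minus strand) and Ahi1 (chr10:20952560-20952589, plus strand), where it lies past the start, 30 bases around it are shown. Bbs1 is the only member with both elements.
Ift57: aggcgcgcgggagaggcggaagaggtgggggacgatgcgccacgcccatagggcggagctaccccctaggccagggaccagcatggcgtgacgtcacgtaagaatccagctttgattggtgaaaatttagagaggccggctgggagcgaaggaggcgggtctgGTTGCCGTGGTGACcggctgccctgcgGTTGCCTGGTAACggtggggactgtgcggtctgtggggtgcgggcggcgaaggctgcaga
Kif17: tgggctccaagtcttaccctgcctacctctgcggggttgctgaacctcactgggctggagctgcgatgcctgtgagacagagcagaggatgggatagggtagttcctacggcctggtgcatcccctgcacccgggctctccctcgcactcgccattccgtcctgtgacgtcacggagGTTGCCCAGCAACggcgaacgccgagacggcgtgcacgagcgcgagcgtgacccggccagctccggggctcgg
Bbs1: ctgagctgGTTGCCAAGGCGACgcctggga
Ahi1: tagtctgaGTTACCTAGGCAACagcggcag

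At ZT6, 5 of 7 BBSome genes, 3 of 5 transition zone genes and 2 of 13 IFT genes were lower in Crx-/- glands (differences between these groups of genes were not tested). Of the 30 genes, 11 were lower and 0 higher (limma, Benjamini-Hochberg adjusted p under 0.05 over all 12379 genes), or 36.7% lower, against a background of 13.1% of all genes called lower and 18.9% called higher. Leaving out Nphp4, which passed the filter through control glands only, 10 of 29 were lower (34.5%). By unadjusted p under 0.05 the counts over the 30 were 13 lower and 1 higher. The 11 were Bbs1, Bbs4, Bbs5, Bbs9, Ttc8, Bbs12, Cep290, Nphp4, Ahi1, Ift43 and Ift81. Their levels in Crx-/- glands were 52.8% to 85.3% of control, so the changes were moderate, and 0 of the 30 changed by a log2 of 1 or more. The median log2 change was -0.17, against 0.03 over all genes. In whole glands, fewer cells of a type and less RNA per cell cannot be told apart. Without control ZT20 replicate 3 the same 11 genes were lower, against a background of 18.8%, and Ift57 was higher, against a background of 24.8%.

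**Figure D1:**
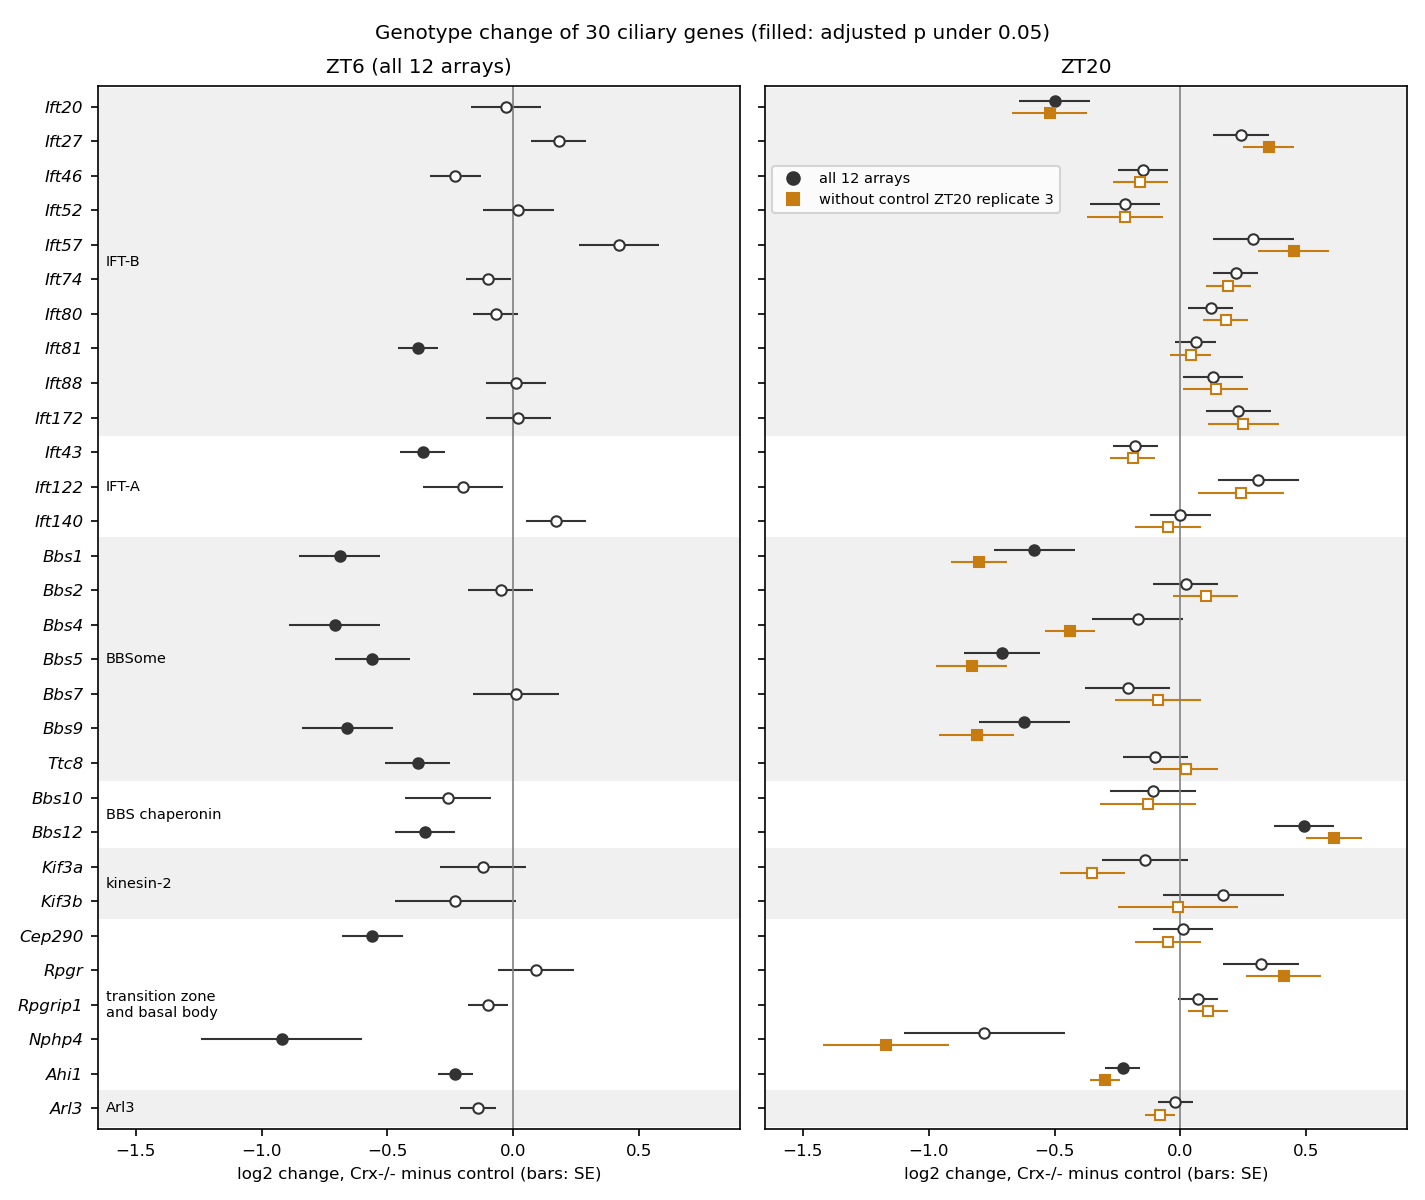
Log2 change of the 30 ciliary genes, Crx-/- minus control (horizontal axis, bars give the SE), at ZT6 and at ZT20, grouped by complex. Filled symbols passed an adjusted p of 0.05; circles are fits with all 12 arrays and squares the fit without control ZT20 replicate 3. The filled symbols at ZT6 lie left of 0 and cluster in the BBSome and the transition zone, with Nphp4 farthest left at -0.92.

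The signals of the 2 genotypes did not overlap at ZT6 for 14 members that were lower and 2 that were higher in Crx-/- glands, against 24.5% and 30.6% of all genes. How many genes passed depended on single arrays. The count of members called was 7 without control ZT6 replicate 1, 5 without control ZT6 replicate 2, 7 without Crx-/- ZT6 replicate 1 and 6 without Crx-/- ZT6 replicate 3, and each called gene was lower in Crx-/- glands. Over the 22 alternative settings, Bbs1, Bbs4, Cep290, Ift43 and Ift81 were called in 21, the exception being signals used as deposited with no scaling, and Bbs5 and Bbs9 in 19. Ahi1 was called in 15, Nphp4 in 13, Ttc8 in 8 and Bbs12 in 7 of 22, and the last 4 had adjusted p values of 0.0217 to 0.0496.

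Of the 8 genes listed in this group, the 7 that were tested encode BBSome subunits. The other is Arl6, a GTPase that the complex binds and not a subunit. At ZT6, 5 of 7 were lower (71.4%, against 13.1% of all genes), with a median log2 change of -0.56. Bbs1, the subunit that binds the GTPase Arl6 and so docks the complex on membranes, had normalized signals of 1171, 1189 and 1098.5 in Crx-/- glands, against 1835, 1946 and 1819 in control glands. The groups were far apart, and the level was 61.8% of control (log2 change -0.69 ± 0.16, SE, n = 3 arrays each, limma adjusted p = 0.00812). Bbs4, a repeat-protein subunit, had 2137, 2487 and 2157 in Crx-/- glands, against 3674, 3591 and 3810 in control glands. Its change was -0.71 ± 0.18 (adjusted p = 0.0104), again with no overlap. All 4 Bbs4 probe sets were lower at ZT6, with log2 changes of -0.71 to -1.31 in a fit with one row per probe set, so the tested set gave the smallest change of the 4.

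Bbs5, a subunit that binds phosphoinositides, had signals of 1670, 1998 and 1423 in Crx-/- glands at ZT6, against 2228, 2655 and 2558 in control glands. Bbs9, a scaffold of the complex, had 451.1, 525.8 and 415.8 in Crx-/- glands, against 668.1, 776.2 and 758.5 in control glands. For both genes every Crx-/- array lay below every control array, by -0.56 ± 0.15 for Bbs5 (adjusted p = 0.0143) and -0.66 ± 0.18 for Bbs9 (adjusted p = 0.0141). Ttc8, the subunit also called BBS8, had 1055, 1412 and 1104 in Crx-/- glands, against 1556, 1528 and 1541 in control glands. The middle Crx-/- array came close to the controls, and the change of -0.38 ± 0.13 was just past the threshold (adjusted p = 0.0459).

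The remaining BBSome subunits tested, Bbs2 and Bbs7, were not called. Bbs7 had 476.3, 690 and 504.7 in Crx-/- glands at ZT6, against 580.6, 561 and 500.0 in control glands. The Crx-/- arrays spanned the control range, and the interval of its log2 change, 0.01, ran from -0.36 to 0.38 (95% confidence). For Bbs2, which forms a dimer with Bbs7, the change was -0.05, with an interval of -0.33 to 0.22. A fall of the size seen in Bbs1 therefore lay outside the interval of both genes. Whether the subunits differed from one another was not tested.

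Of the chaperonin-like proteins that assemble the BBSome, Bbs10 and Bbs12 were members. Bbs12 had signals of 565.2, 588.1 and 523.6 in Crx-/- glands at ZT6, against 716.3, 694.2 and 722.1 in control glands. This was a change of -0.35 ± 0.12, the least firm of the 11 calls (adjusted p = 0.0496). Bbs10 was not called (-0.26 ± 0.17, adjusted p = 0.256). The third protein of this chaperonin, Mkks, was in a wider list of ciliary genes. It had 729.4, 570.5 and 777 in Crx-/- glands, against 1367, 1317 and 1254 in control glands, a change of -0.93 ± 0.20 (adjusted p = 0.00559). Arl3, the GTPase that releases lipid-anchored proteins inside the cilium, changed by -0.14 ± 0.07 and was not called (adjusted p = 0.115), although its arrays did not overlap.

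**Figure D2:**
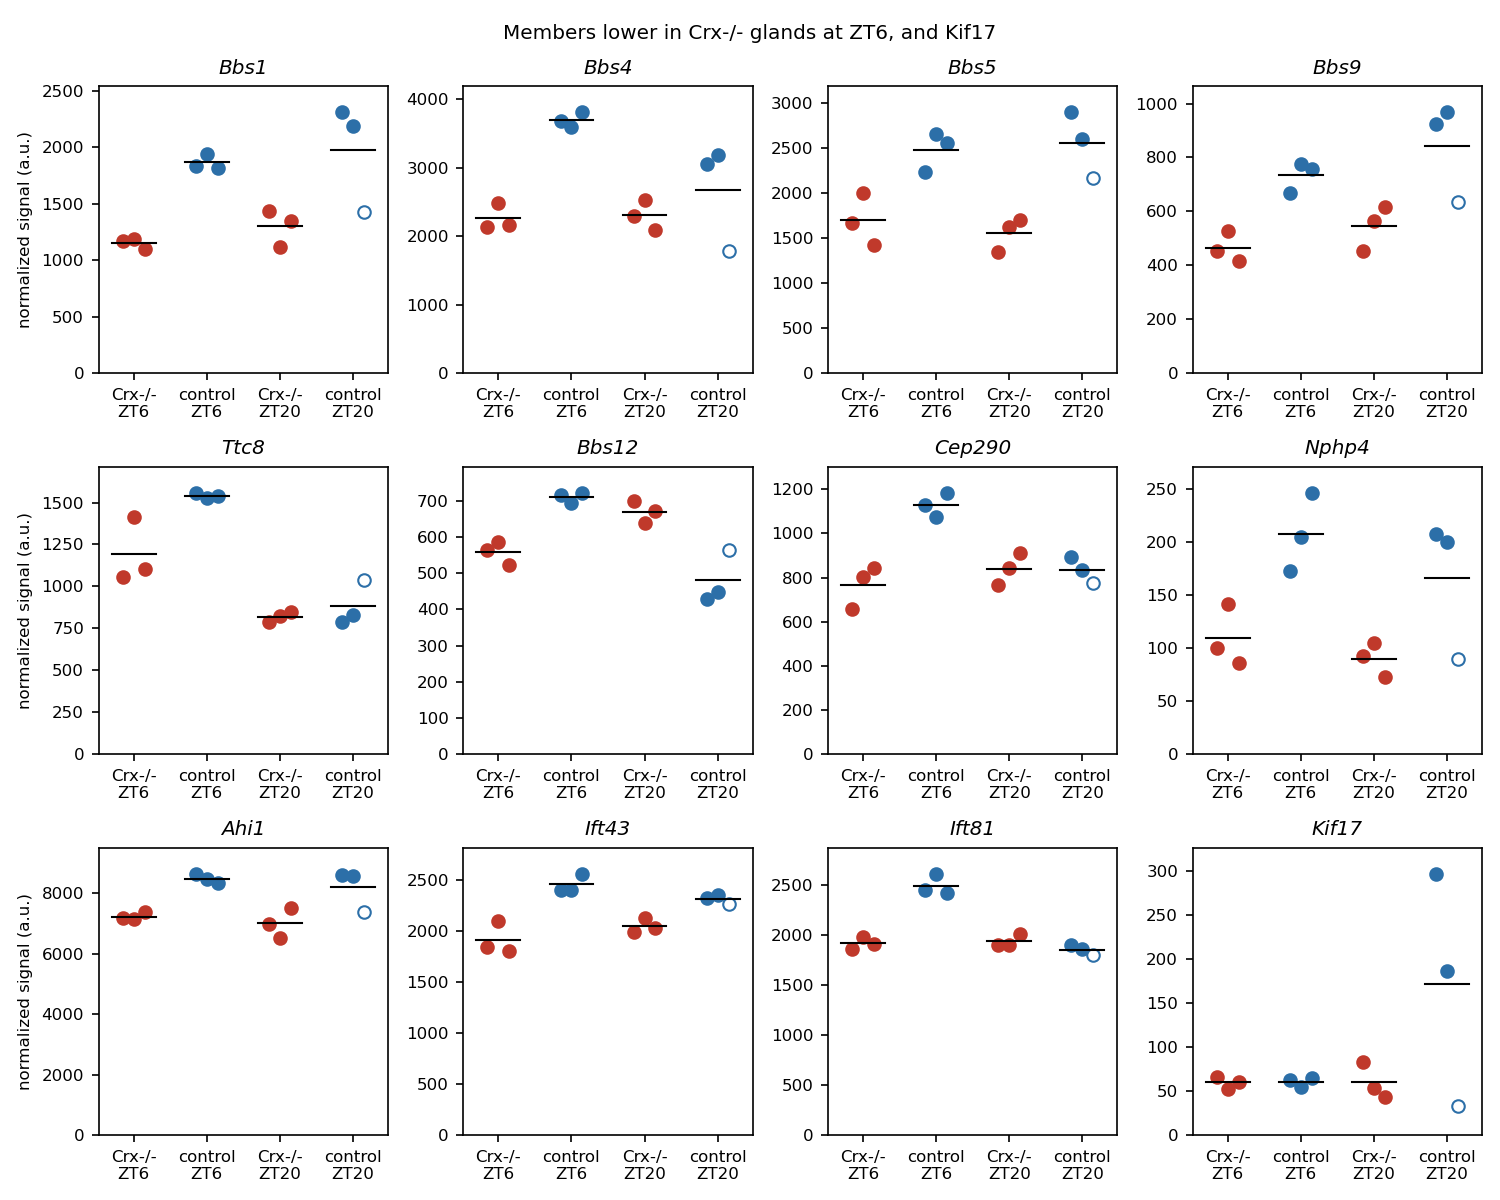
Normalized signal (vertical axis, arbitrary units from 0) of each array in the 4 groups for the 11 ciliary genes lower at ZT6 and for Kif17. Bars mark group means and the open circle marks control ZT20 replicate 3. Bbs1, Bbs5 and Bbs9 were lower in Crx-/- glands at both times, Cep290, Ttc8 and Ift81 overlapped between the genotypes at ZT20, and Bbs12 was higher in Crx-/- glands at ZT20.

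Among the IFT genes, 2 of 13 were lower at ZT6 (15.4%, close to the 13.1% of all genes), and the median log2 change was -0.03. Ift81, which pairs with Ift74 to bind the tubulin cargo of IFT-B, had 1863, 1979 and 1911 in Crx-/- glands, against 2454, 2609 and 2416 in control glands. The arrays were tightly grouped, and the change was -0.38 ± 0.08 (adjusted p = 0.00469). A second Ift81 probe set changed by -0.51 (adjusted p = 0.0221 in the fit with one row per probe set). Ift43, a small subunit of IFT-A, had 1850, 2099 and 1804 in Crx-/- glands, against 2409, 2410 and 2562 in control glands, a change of -0.36 ± 0.09 (adjusted p = 0.00793).

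Other core IFT genes stayed close to control. Ift88, the IFT-B subunit mutated in the Oak Ridge polycystic kidney mouse, had 506.7, 450.2 and 436.7 in Crx-/- glands at ZT6, against 502, 454.8 and 428.4 in control glands. The sets of values nearly coincide, and the interval of the log2 change ran from -0.24 to 0.26. Ift52 and Ift172, both of IFT-B, changed by 0.02 each, with intervals of -0.28 to 0.33 and -0.26 to 0.30. Ift52 had 820.3, 981 and 739.9 in Crx-/- glands, against 800.6, 809.8 and 879 in control glands. Ift172 had 742.8, 722.6 and 664.7 in Crx-/- glands, against 735.7, 724.4 and 644.2 in control glands. These 3 genes and Bbs7 had the smallest changes of all the members.

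Ift57 went the other way. It had 1418, 1736 and 1412 in Crx-/- glands at ZT6, against 1101, 1228 and 1068 in control glands, with no overlap. The change of 0.42 ± 0.16 missed the threshold with all 12 arrays (adjusted p = 0.0600) and passed it without control ZT20 replicate 3 (adjusted p = 0.0143). Ift57 is a peripheral IFT-B subunit, and its promoter holds the pair of X-boxes printed above. The other 7 IFT members, Ift20, Ift27, Ift46, Ift74, Ift80, Ift122 and Ift140, had changes between -0.23 and 0.18 at ZT6 and were not called.

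By its brightest probe set, neither kinesin-2 subunit that was tested was called at ZT6. Kif3a changed by -0.12 ± 0.17 (adjusted p = 0.629) and Kif3b by -0.23 ± 0.24 (adjusted p = 0.499). Kif3c, a related kinesin-2 subunit from the wider list, had 420.8, 351.9 and 418.9 in Crx-/- glands, against 802.5, 705.2 and 801.2 in control glands. Its change of -0.95 ± 0.20 (adjusted p = 0.00422) was the largest fall in that list. Kif3b and Kif3c each pair with Kif3a, and the difference between their changes was not tested. At ZT20 without control ZT20 replicate 3, a dimmer Kif3a set (-0.42) and dimmer Kif3b sets (-0.74 and -0.97) were called lower in the probe-set fit. The brightest sets of both genes were not called there.

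Of 5 genes of the transition zone and its neighbours, 3 were lower at ZT6, Nphp4 among them (13.1% of all genes were lower). Cep290, which links the membrane to the microtubules there and is a frequent cause of Leber congenital amaurosis in people, had 656.9, 804.9 and 841.4 in Crx-/- glands, against 1129, 1077 and 1183 in control glands. The level was 67.7% of control (-0.56 ± 0.12, adjusted p = 0.00563). Nphp4, a nephronophthisis gene, changed by -0.92 ± 0.32 (adjusted p = 0.0421) but was dim and had entered the test through control glands only, with 100.4, 142 and 86.1 in Crx-/- glands, against 172.9, 205.2 and 246.4 in control glands. Before normalization its deposited signals at ZT6 were 83.5 to 163.4 in Crx-/- glands and 167.7 to 274.2 in control glands, above 16.4, the highest deposited signal of the 27 Bacillus control probe sets. Ahi1, a Joubert syndrome gene in people, was among the brightest members, with 7178, 7147 and 7381 in Crx-/- glands, against 8640, 8465 and 8344 in control glands. Its change was small and tight, -0.23 ± 0.07 (adjusted p = 0.0217), while a dimmer probe set of the gene changed by -1.34.

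The pair Rpgr and Rpgrip1, whose proteins bind each other in the connecting cilium of photoreceptors, was not called at ZT6 by the brightest probe sets. Rpgr changed by 0.09 ± 0.15 (adjusted p = 0.658). The brightest Rpgrip1 probe set gave 4308, 5037 and 5200 in Crx-/- glands, against 5334, 4848 and 5365 in control glands (-0.10 ± 0.08, adjusted p = 0.377). A pair of dimmer Rpgrip1 probe sets disagreed with it: both were lower, with log2 changes of -0.88 and -0.75 (adjusted p = 0.0162 and 0.0287 in the fit with one row per probe set). The annotation used here does not say which transcripts each set reads, so the result for Rpgrip1, one of the members with TAATCC before its start, depends on the probe set.

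At ZT20, 5 of the 30 genes were lower and 1 was higher in Crx-/- glands with all 12 arrays, against a background of 4.8% lower and 6.83% higher. Those lower were Bbs1, Bbs5, Bbs9, Ahi1 and Ift20, and Bbs12 was higher. Without control ZT20 replicate 3, 7 were lower and 4 higher, against a background of 19.6% lower and 24.1% higher. Bbs4 and Nphp4 then joined those lower, and Ift27, Ift57 and Rpgr those higher, so the share of members lower, 23.3%, came near that of all genes. The median log2 change was -0.01 with 12 arrays and -0.05 with 11. Bbs1, Bbs5, Bbs9 and Ahi1 were lower at both times with 12 arrays, and Bbs4 and Nphp4 as well with 11. Of these, Nphp4 had passed the filter through control glands only.

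Counts at ZT20 rested on single arrays. The number of members called was 0 without control ZT20 replicate 1 or 2, and 0 without Crx-/- ZT20 replicate 1 or 2 (6 to 10 of the 30 had an unadjusted limma p under 0.05 in these fits). It was 1 without any one of the control ZT6 arrays or without Crx-/- ZT6 replicate 1, 2 without Crx-/- ZT20 replicate 3, and 3 without Crx-/- ZT6 replicate 2 or 3. A fit on the 2 ZT20 groups alone called 0 members, with 6 at an unadjusted limma p under 0.05.

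At ZT20 Bbs1 had 1440, 1113 and 1351 in Crx-/- glands, against 2313 and 2191 in control replicates 1 and 2 and 1424 in control replicate 3. The last array lay within the Crx-/- range, and the change was -0.58 ± 0.16 with it (adjusted p = 0.0452) and -0.80 ± 0.11 without it (adjusted p = 0.000113). Bbs5 had 1340, 1620 and 1695 in Crx-/- glands, against 2896, 2598 and 2169 in control glands. Here all control arrays were above all Crx-/- arrays, and the change was -0.71 ± 0.15 (adjusted p = 0.0262). Bbs9 had 451.4, 566 and 614.6 in Crx-/- glands, against 925.8, 968.4 and 636 in control glands. Its change was -0.62 ± 0.18 (adjusted p = 0.0453), and control replicate 3 was the lowest of the controls. Ahi1 had 6972, 6536 and 7514 in Crx-/- glands, against 8616, 8588 and 7391 in control glands (-0.23 ± 0.07, adjusted p = 0.0494). With the replicate number as a block, Ahi1 missed the threshold at ZT20 (adjusted p = 0.0629).

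Ift20, an IFT-B subunit that also works at the Golgi in ciliary sorting, was lower at ZT20 and not called at ZT6. Its ZT20 signals were 925, 1144 and 1138 in Crx-/- glands, against 1518, 1538 and 1478 in control glands. All 3 control arrays were close together, control replicate 3 included, and the change was -0.50 ± 0.14 (adjusted p = 0.0432). At ZT6 the values were 1248, 1536 and 1077 in Crx-/- glands, against 1153, 1396 and 1353 in control glands (-0.03 ± 0.14). The difference between the times did not pass in the interaction fit.

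Bbs4 and Nphp4 show what control ZT20 replicate 3 does. Bbs4 had 2299, 2529 and 2095 in Crx-/- glands at ZT20, against 3053 and 3180 in control replicates 1 and 2 and 1789 in control replicate 3, the lowest value of the 6. Its change was -0.17 ± 0.18 with that array (adjusted p = 0.510) and -0.44 ± 0.10 without it (adjusted p = 0.00299). Nphp4 had 92.3, 104.5 and 72.9 in Crx-/- glands, against 207.3, 200.5 and 90 in control glands. With the array its change was -0.78 ± 0.32 (adjusted p = 0.104), and without it -1.17 ± 0.25 (adjusted p = 0.00209).

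Some ciliary genes were higher in Crx-/- glands at ZT20. Bbs12 had 700.3, 640.6 and 672.2 in Crx-/- glands, against 428.9, 448.8 and 565.8 in control glands, a change of 0.49 ± 0.12 (adjusted p = 0.0356). This is the reverse of its direction at ZT6. Ift57 had 1075, 1264 and 1205 in Crx-/- glands, against 760.3, 982 and 1207 in control glands. Ift27, a Rab-like GTPase that helps the BBSome leave the cilium, had 1425, 1258 and 1373 in Crx-/- glands, against 1083, 1040 and 1313 in control glands. For both, control replicate 3 lay among the Crx-/- arrays, and without it Ift57 was higher by 0.45 ± 0.14 (adjusted p = 0.0194) and Ift27 by 0.35 ± 0.10 (adjusted p = 0.0115). Rpgr, with 1884, 1636 and 1680 in Crx-/- glands, against 1443, 1172 and 1564 in control glands, was higher by 0.41 ± 0.15 without that array (adjusted p = 0.0411).

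Kif17, the homodimeric kinesin-2 that carries membrane cargo in sensory cilia, was dim on most arrays and failed the filter. At ZT20 it had 82.5, 53.8 and 43.4 in Crx-/- glands, against 296.7, 186.7 and 33.4 in control glands. Control replicates 1 and 2 stood above all other arrays of the series. At ZT6 it had 66.2, 52.6 and 60.7 in Crx-/- glands, against 62.6, 54.1 and 64.7 in control glands, with no visible difference. In a fit with no filter, a setting chosen after the data were seen, the ZT20 change was -1.97 ± 0.30 without control ZT20 replicate 3 (limma adjusted p = 0.000280 over 18193 genes). It was -1.06 ± 0.57 with all 12 arrays (adjusted p = 0.256). In control glands the change between times, ZT20 minus ZT6, was 1.92 ± 0.30 without that array (adjusted p = 0.000776) and 1.01 ± 0.57 with it (adjusted p = 0.302). The interaction was -1.96 ± 0.40 without the array (adjusted p = 0.0197) and -1.05 ± 0.81 with it (adjusted p = 0.678). Tmem67, a membrane protein of the transition zone, was at 13.9 to 63.8 on all arrays and was not called in these fits.

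Averaged over both times with all 12 arrays, 11 members were lower and 2 higher in Crx-/- glands, against a background of 18.1% lower and 25.3% higher. Bbs1, Bbs5 and Bbs9 each changed by -0.64 (SE 0.12, 0.11 and 0.12), Nphp4 by -0.85 ± 0.22, Bbs4 by -0.44 ± 0.13 and Cep290 by -0.28 ± 0.09. Ift20, Ift43, Ift46, Ift81 and Ahi1 were lower by smaller amounts, -0.16 to -0.27. Ift57 and Ift27 were higher, by 0.35 ± 0.11 and 0.21 ± 0.08. Without control ZT20 replicate 3, 13 were lower and 3 higher, against a background of 24.7% lower and 31.2% higher. The averaged count was 7 without control ZT6 replicate 3, and between 9 and 16 without any other single array. The authors' deposited table of changes, made for both times together, holds 512 lower and 714 higher entries, all with a log2 change of at least 1.01 in size. It holds 0 members. In the averaged fit no tested member reached that size with 12 arrays, and Nphp4 did with 11 (-1.05 ± 0.17, adjusted p = 0.000132). Nphp4 had passed the filter through control glands only, which favours a lower value in Crx-/- glands.

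Day and night were then compared within each genotype. In control glands 6 members were lower at ZT20 than at ZT6, namely Ift74, Ift81, Bbs12, Ttc8, Arl3 and Cep290, against a background of 9.03% of genes lower and 7.09% higher at ZT20. In Crx-/- glands 0 of 30 were called (limma, 3 with an unadjusted p under 0.05), against a background of 1.58% in either direction (0.695% higher and 0.881% lower). Without control ZT20 replicate 3, 7 were lower at ZT20 in control glands, Ift27 among them, against a background of 13.1% lower and 25.2% in either direction. In Crx-/- glands Ttc8 was then called lower at ZT20, against a background of 3.56% lower and 2.59% higher (6.14% in either direction).

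**Figure D3:**
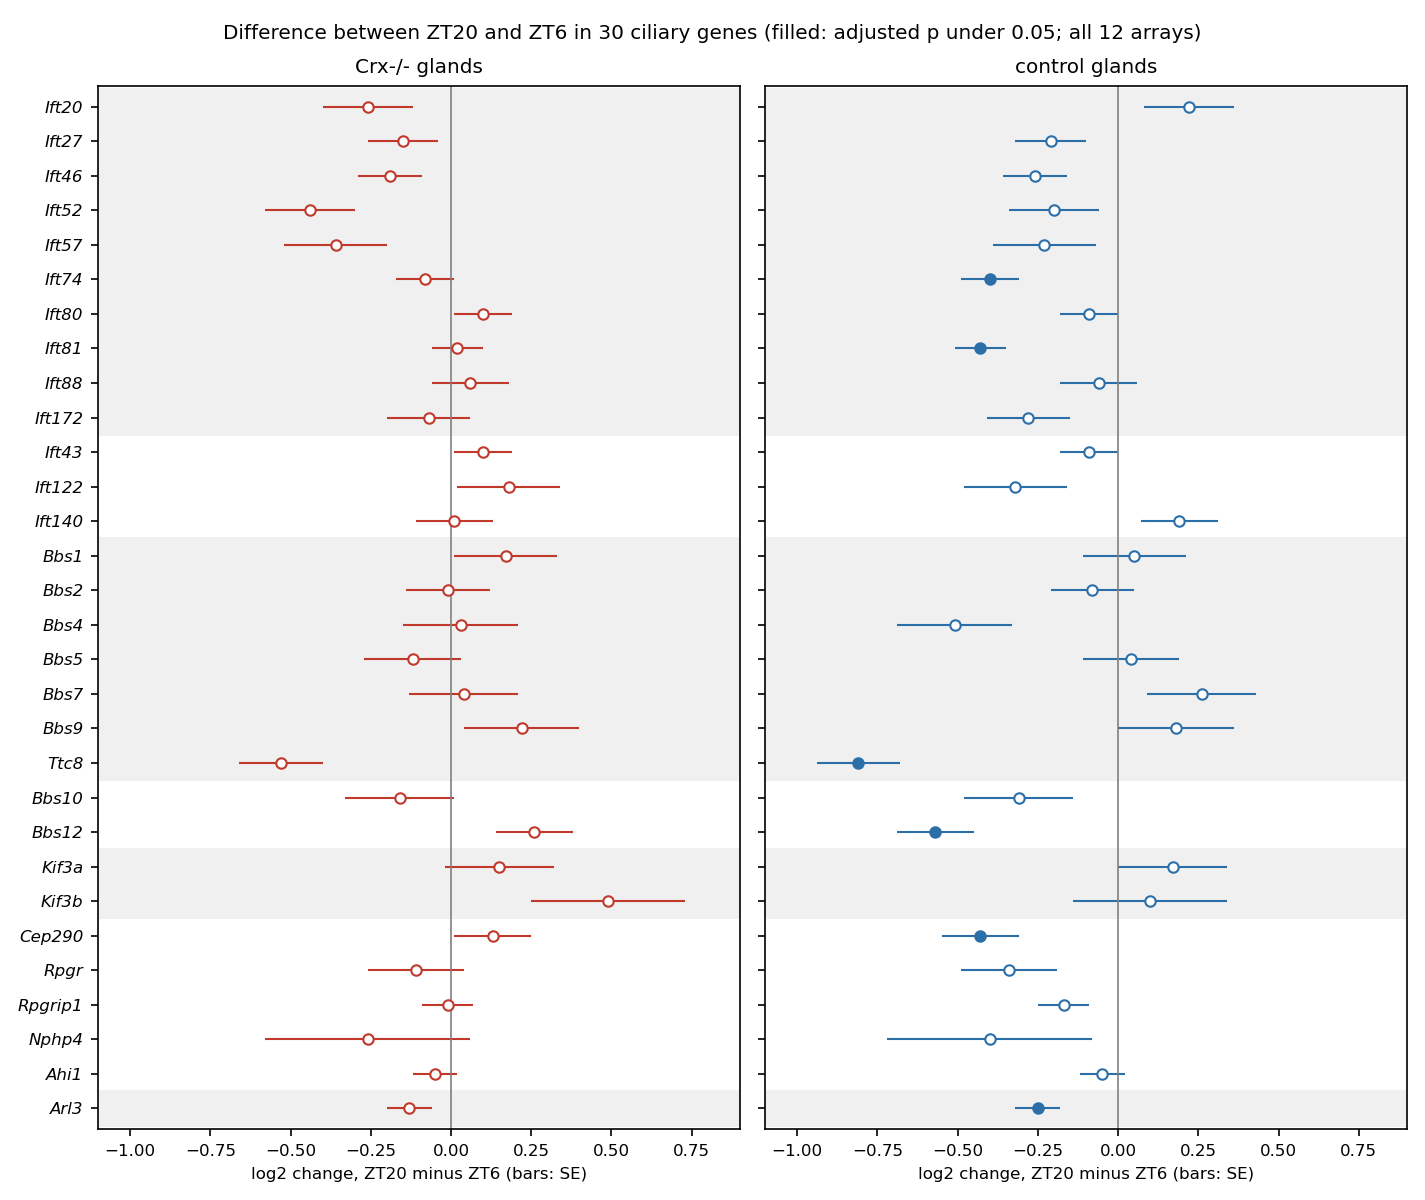
Log2 change between times, ZT20 minus ZT6 (horizontal axis, bars give the SE), for the 30 ciliary genes in Crx-/- glands (left) and control glands (right), all 12 arrays. Filled points passed an adjusted p of 0.05: 0 in Crx-/- glands and 6 in control glands, the largest of them Ttc8 at -0.81.

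Of the 30 tested genes, Ttc8 had the largest difference between times. In Crx-/- glands it had 786.7, 820.4 and 847.5 at ZT20, against 1055, 1412 and 1104 at ZT6. In control glands it had 787.5, 830.5 and 1039 at ZT20, against 1556, 1528 and 1541 at ZT6. The ZT20 arrays lay below the ZT6 arrays in both genotypes, by -0.53 ± 0.13 in Crx-/- glands (adjusted p = 0.0865) and -0.81 ± 0.13 in control glands (adjusted p = 0.00232). Ift81 had 1898, 1904 and 2014 at ZT20 in Crx-/- glands, against 1863 to 1979 at ZT6, and 1901, 1861 and 1797 at ZT20 in control glands, against 2416 to 2609 at ZT6. Its level thus differed between times in control glands (-0.43 ± 0.08, adjusted p = 0.00436), and at 0.02 ± 0.08 in Crx-/- glands it was not called.

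Cep290 had a like pattern of values, with 764.7, 845.3 and 911.3 at ZT20 in Crx-/- glands and 895, 835.7 and 775.9 at ZT20 in control glands. Its log2 change between times was 0.13 ± 0.12 in Crx-/- glands and -0.43 ± 0.12 in control glands (adjusted p = 0.0329 for control). For Bbs12 it was 0.26 ± 0.12 in Crx-/- glands and -0.57 ± 0.12 in control glands (adjusted p = 0.00945 for control). The difference between the genotypes in these changes was tested as an interaction. With 12 arrays 0 of 30 members were called (limma, 6 with an unadjusted p under 0.05), against a background of 0.234% in either direction. Without control ZT20 replicate 3, Bbs12 (0.96 ± 0.15, adjusted p = 0.00351) and Ift81 (0.42 ± 0.11, adjusted p = 0.0442) were called, against a background of 2.28% higher and 3.9% lower (6.18% in either direction). For Cep290 the interaction was 0.52 ± 0.17 in that fit and was not called (adjusted p = 0.0962).

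Photoreceptor genes were measured for comparison, and many changed by larger amounts. Of 56 listed, 34 were tested, and at ZT6, 15 were lower and 3 higher in Crx-/- glands, with a median log2 change of -0.50. Of all genes, 13.1% were lower and 18.9% higher. A log2 change of 1 or more in size was seen in 14 of 34 photoreceptor genes and in 0 of 30 ciliary genes. The sizes were not tested against each other. Of these 14 photoreceptor genes, 5 passed the filter through control glands only and 1 through Crx-/- glands only, and 8 remain without them. Leaving out every photoreceptor gene that passed through a single genotype, 27 were left. Of these, 10 were lower (37%) and 2 higher, with a median log2 change of -0.24. For the 29 members left by the same rule, the share lower was 34.5% and the median -0.14. Slc24a1, the rod potassium-dependent sodium-calcium exchanger, had 121, 107.2 and 72.8 in Crx-/- glands at ZT6, against 1272, 1163 and 1182 in control glands (-3.57 ± 0.64, adjusted p = 0.00195). Its level was 8.41% of control. Nxnl1, a thioredoxin-like photoreceptor gene, had 17, 22.8 and 24.9 in Crx-/- glands, against 220.1, 200.8 and 217.6 in control glands. Its deposited signals in Crx-/- glands, 13 to 32.8, lay around the Bacillus maximum of 16.4, so no exact fold is given. Other genes with large falls were Ppef2, a photoreceptor phosphatase, at -3.08, Mpp4, a presynaptic scaffold, at -2.23, Opn1sw, the short-wave cone opsin, at -1.87, and Tulp1, a photoreceptor trafficking protein, at -1.68. Ppef2, Opn1sw and Nxnl1 are among the genes that entered through control glands only.

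Not every photoreceptor gene fell. Impg1, a proteoglycan of the matrix around photoreceptors, had 256.5, 253 and 211.8 in Crx-/- glands at ZT6, against 17.8, 22.7 and 29.2 in control glands (3.21 ± 0.55, adjusted p = 0.00168). Cngb3, a cone channel subunit, and Abca4, a retinoid transporter, were higher by 0.88 ± 0.13 and 0.66 ± 0.21. At ZT20, 10 photoreceptor genes were lower (29.4%) and 1 higher with 12 arrays, against a background of 4.8% lower and 6.83% higher. With 11 arrays 21 were lower (61.8%) and 5 higher, against a background of 19.6% lower and 24.1% higher. The count was 0 without control ZT20 replicate 1 or 2 or without Crx-/- ZT20 replicate 1 or 2, and 4 to 7 without any one ZT6 array or without Crx-/- ZT20 replicate 3.

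**Figure D4:**
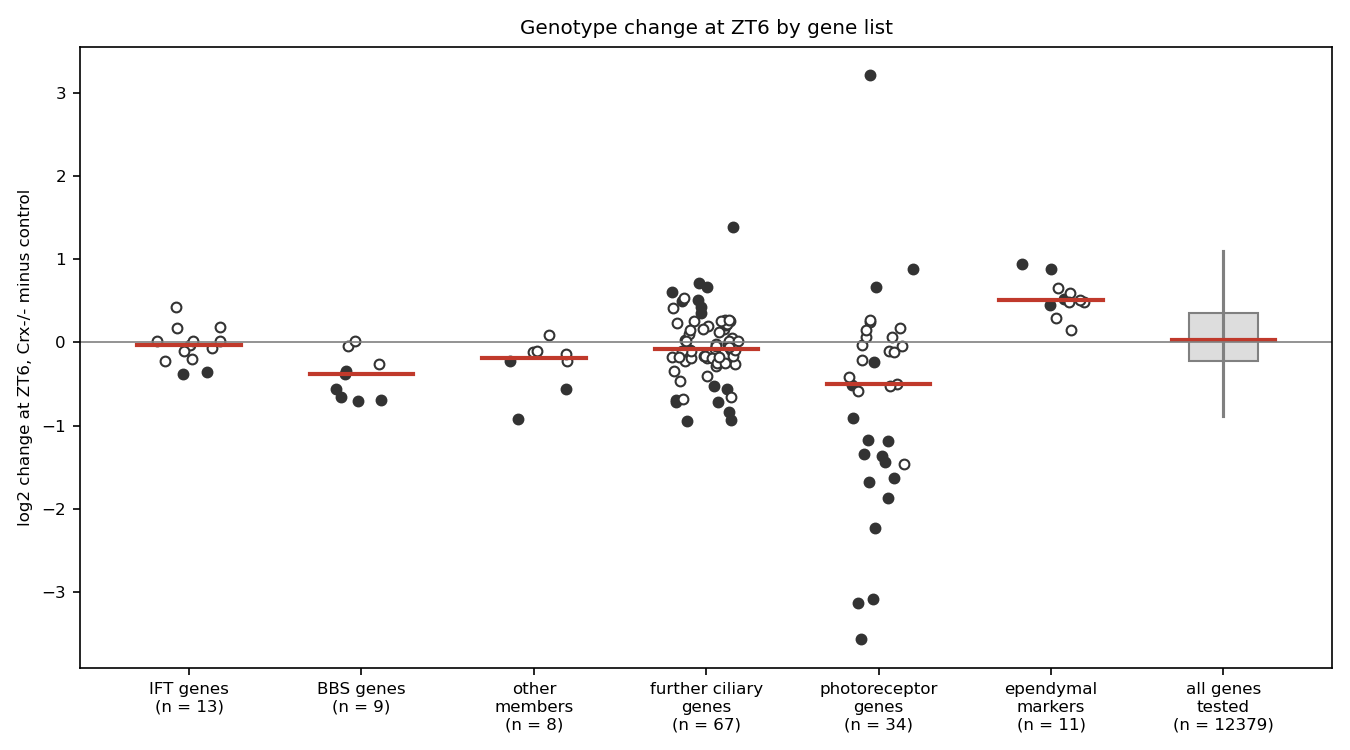
Log2 change at ZT6, Crx-/- minus control (vertical axis), of each gene in 6 lists; filled points passed an adjusted p of 0.05, and red bars are medians. For all genes tested, the box spans the middle quartiles and the line the 5th to 95th percentiles. The IFT genes centre near 0 (median -0.03) and the BBS genes lower (-0.38), while photoreceptor genes reach beyond -3.

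A wider list of 86 ciliary genes that are not members, of which 67 were tested, is given beside them. At ZT6, 8 were lower and 8 higher in Crx-/- glands, or 11.9% lower, close to the 13.1% of all genes, and the median log2 change was -0.08. Besides Kif3c and Mkks, those with the largest falls were Alms1, the gene of Alström syndrome in people (-0.84 ± 0.15), Cep164 of the basal body appendages (-0.72 ± 0.21), Arl2, a relative of Arl3 (-0.72 ± 0.14), and the IFT-A subunit Wdr35 (-0.69 ± 0.11). Those with the largest rises were Tub, a carrier of ciliary receptors (1.39 ± 0.47), Kif7, a kinesin of Hedgehog signalling (0.71 ± 0.16), Sdccag8 (0.66 ± 0.14), the appendage gene Odf2 (0.60 ± 0.17), Cep83 (0.51 ± 0.12) and Invs (0.50 ± 0.13). The Tub value rests on Crx-/- ZT6 replicate 3, at 494.5, beside 154.7 and 148.1 on the other Crx-/- arrays and 68.3 to 108.9 in control glands. The neuron markers Camk2a and Rbfox3 stood out on the same array.

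At ZT20 the wider list had 3 genes lower and 2 higher with 12 arrays, and 14 lower and 12 higher with 11. The shares lower, 4.48% and 20.9%, were close to those of all genes, 4.8% and 19.6%. Rab3ip, the exchange factor for Rab8 in ciliary membrane traffic, had 533.2, 611.3 and 522.7 in Crx-/- glands, against 1706, 1657 and 634.2 in control glands (-1.13 ± 0.30, adjusted p = 0.0381). As for Kif17, control replicates 1 and 2 were high and control replicate 3 was at the Crx-/- level. Among genes for transcription factors of ciliary programmes, Myb was higher at ZT6 (1.79 ± 0.52, adjusted p = 0.0212), the one called of 9 tested. Foxj1, the factor for motile cilia, was too dim for the filter, at 56.1 to 100.4 in Crx-/- glands and 60.8 to 87 in control glands at ZT6.

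Genes of other cells moved with genotype beside the ciliary genes. Markers of ependyma, whose motile cilia share IFT, were higher at ZT6 in 4 of 11 tested (36.4%, against 18.9% of all genes). These were Pifo (0.94), Dynlrb2 (0.88), Cfap126 (0.52) and Rarres2 (0.45). The summed signal of all 16 markers was 13700 to 15600 in Crx-/- glands and 9010 to 10900 in control glands at ZT6. It was 13700 to 14500 in Crx-/- glands and 6940 to 13700 in control glands at ZT20. Dnah12, which encodes an axonemal dynein, was dim throughout, at 2.2 to 16.4. At ZT6, 5 of 7 astrocyte, 3 of 3 oligodendrocyte, 4 of 6 neuron and 4 of 6 microglia markers tested were also higher. So were 2 of 5 endothelial, 6 of 7 meningeal and 2 of 7 choroid plexus markers, while 2 of 7 pineal genes were lower (13.1% of all genes). Camk2a, Rbfox3, Nefl and Stmn2 are neuron markers that were highest on replicate 3 of the Crx-/- ZT6 arrays, as given above. At ZT20 with 12 arrays, 0 astrocyte, microglia, endothelial and meningeal markers were called. Higher there were 3 of 3 oligodendrocyte, 2 of 6 neuron, 3 of 11 ependymal and 2 of 7 choroid plexus markers (6.83% of all genes). Without control ZT20 replicate 3, 6 of 7 astrocyte, 5 of 7 meningeal, 3 of 5 endothelial and 1 of 6 microglia markers were higher at ZT20. So were 9 of 10 ependymal, 4 of 7 choroid plexus, 3 of 3 oligodendrocyte and 2 of 6 neuron markers (24.1% of all genes). In that fit 1 astrocyte marker was lower, and of 7 pineal genes 3 were lower and 2 higher (19.6% of all genes were lower). Ratios of 5' to 3' probe sets at ZT6 were 0.169 to 0.219 in Crx-/- glands and 0.248 to 0.283 in control glands for actin, and 0.459 to 0.548 in Crx-/- glands and 0.590 to 0.636 in control glands for Gapdh. The part of these differences in the falls and rises of the ciliary genes was not tested.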

How the data were processed

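RNA (100 ng per sample) was amplified with a NuGEN kit, per the labels. The deposited values are GCOS signal intensities, 1 per probe set on a linear scale, per the labels, and the GCOS version is not given in the sources used here. Trimmed means (2%) ran from 377.3 to 696.8 over the 12 arrays, so signals were quantile normalized and used as log2(signal + 3.4), the offset being the 10th percentile. For arrays, their number limits the precision. Probe sets at or above their array's median on at least 3 arrays were kept, and the brightest per gene was tested. Groups came from the deposited titles. Percentages of control are back-transformed from that log2 scale. The model had 1 mean per group (limma 3.58.1, R 4.3.3, eBayes with an intensity trend), and two-sided p-values were adjusted by Benjamini-Hochberg over 12379 genes (12368 without control ZT20 replicate 3). The authors deposited log2 and linear fold changes made with ChipInspector 2.1, per the series text, and only the log2 values were used.

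Of 45037 probe sets other than controls, 34945 had 1 symbol, 932 had several and 9160 had none; only those with 1 were used. Promoter sequences are from RefSeq, GRCm38.p6. The members and all lists (ciliary, photoreceptor, transcription factor and cell markers) were chosen with earlier results of these data known. Values by array are given for members called at ZT6 or ZT20 and the 4 of smallest change. From other lists, at most 6 called genes with the largest rises and 6 with the largest falls are named. The alternatives changed scaling, offset, filter, probe-set choice, variance trend, replicate block, the groups fitted and the arrays kept. Deviations of same-numbered arrays from their group means correlated at -0.273 to 0.211 over 18 pairs. Between Crx-/- ZT20 and control ZT20 all 3 pairs were over 0.1 (0.131, 0.137 and 0.185), and for no other pair of groups was this so. The labels name no pairing, and values this small do not establish it. For that comparison the value with the replicate block is given as an alternative where it changes a call.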

Additional observations from a re-analysis of the deposited data

Results flagged for a closer look

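The change by genotype differed between ZT20 and ZT6 for 2 of the 30 tested members in the fit without control ZT20 replicate 3, by a test of the difference itself (limma interaction). For Bbs12 the log2 change at ZT20 exceeded that at ZT6 by 0.96 (adjusted p = 0.00351), with every Crx-/- array above every control array at ZT20 and below at ZT6. For Ift81 the difference was 0.42 (adjusted p = 0.0442). With all 12 arrays the differences were 0.83 for Bbs12 (adjusted p = 0.0667) and 0.44 for Ift81 (adjusted p = 0.124), and neither passed. Kif17, too dim for the filter, had a difference of -1.96 (adjusted p = 0.0197) in the unfiltered fit without that array, and -1.05 (adjusted p = 0.678) with all 12.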

How the results depend on the processing

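The number of members called at ZT6 was 11; it was 0 with signals as deposited and not scaled (4 with an unadjusted limma p under 0.05) and 5 to 12 with single arrays left out, and 8 to 12 in the other alternatives. The median change at ZT6 was -0.24 with the mean of all probe sets and -0.18 to -0.15 with single arrays left out. Photoreceptor genes called at ZT6 numbered 14 to 22 with single arrays left out, and all genes 2574 to 5387, or 1275 with signals as deposited. At ZT20, members called were 0 with signals as deposited (2 at an unadjusted limma p under 0.05), 3 with trimmed mean scaling, 1 with no filter, 2 with no trend, 0 with only the groups compared and 0 to 11 with single arrays left out. The ZT20 median was 0.18 with signals as deposited, where the median of all genes also moved, to 0.26 from 0.04. It was -0.08 with the mean of all probe sets, -0.11 without _s_at and _x_at probe sets, and -0.06 to 0.01 with single arrays left out. Photoreceptor genes called at ZT20 were 5 with signals as deposited, 7 with no filter, 4 with no trend, 0 with only the groups compared and 0 to 26 with single arrays left out. For all genes these counts were 75, 765, 944, 0 and 0 to 5411. Over both times, members called were 2 with signals as deposited and 7 to 16 with single arrays left out. For time in control glands they were 1 with signals as deposited, 3 with only the groups compared and 4 to 7 with single arrays left out. With single arrays left out they were 0 to 1 for time in Crx-/- glands and 0 to 2 for the interaction. The cause of these shifts was not tested. No called member changed sign: of 360 values at ZT6 with an array left out, 324 kept their side of the threshold, as did 301 of 360 at ZT20, and 275 and 273 of 300 in the other alternatives. Over all 4 groups the correlations of same-numbered arrays did not establish a pairing, and groups of 3 cannot exclude one. With the replicate block in the fit of all arrays, 10 members were called at ZT6 (9 lower, 1 higher), 5 at ZT20 (without Ahi1), 11 over both times and 6 for time in control glands. At ZT6 Ttc8 and Bbs12 then missed the threshold and Ift57 passed it. The fit with 1 row per probe set was chosen after seeing the data, as was the use of the unfiltered fit for dim genes.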
